A study of Mus musculus with 4 samples.

Results

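The contractile genes of smooth muscle and of the dermal sheath, the layer of connective tissue that wraps the hair follicle, were examined in sorted dermal papilla cells with reduced or deleted Sox2. The genes were taken from a list of 10: Acta2, Actg2, Myh11, Myl9, Mylk, Tagln, Cnn1, Tpm2, Lmod1 and Des. Each of the 10 was measured by 1 probe set that names no other gene, out of 19938 genes on the array. The cells came from mouse skin at postnatal day 5 and were sorted for a green fluorescent protein reporter of Sox2 together with integrin alpha 9. One group of 2 arrays held cells of mice heterozygous for Sox2 (Het), and the other group of 2 held cells of mice in which Sox2 had been conditionally knocked out (cKO). Cells of both groups carry the Sox2 reporter that the sort used. The Cre driver, the strain, the sex and the number of animals behind each array were not given in the sources used here, so p-values measure only the spread between these samples.

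Smooth muscle cells shorten when myosin filaments pull on actin filaments anchored in the cell. Calcium bound to calmodulin activates myosin light chain kinase, which phosphorylates the regulatory light chain and switches myosin on, and a myosin phosphatase reverses this step. Most genes of the machinery are driven by serum response factor (SRF) with its partners myocardin and the myocardin-related factors, through a short DNA element called the CArG box. In the hair follicle the dermal sheath expresses smooth muscle actin and contracts around the follicle, whereas the dermal papilla enclosed at its base is a signalling tissue and is usually low in smooth muscle actin. Pericytes and arterial muscle of the skin carry the same genes.

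RefSeq promoter windows of the assembly GRCm38.p6 were matched for 7 of the 10 genes, and the 250 bases upstream of the start were searched for the CArG box, a motif of 10 bases whose pattern reads the same on both strands. No window was matched for Tagln, Myh11 and Actg2. An exact box was found upstream of Myl9, in 1 of the 7 genes, against 1.47% of all 32851 windows. With up to 1 mismatch allowed, boxes were found for 3 genes (Acta2, Myl9 and Lmod1), against 18.6% of windows. The units differ, since members were counted as genes and the background as windows, which belong to 27025 genes. No box of either kind was found upstream of 4 genes: Cnn1, Des, Tpm2 and Mylk. The stretches of Acta2 and Myl9 are shown because these genes stand for the sheath actin and for the member that varied most between arrays. Vinculin (Vcl) and calponin 2 (Cnn2), which are not members, are shown because their windows hold an exact box and their arrays were ordered by replicate number as those of Myl9 were. Both traits were used to pick them, so they say nothing about a link between box and order, which was not tested. Exact boxes were also found for Myl6, Fhl1 and Ldb3 of the same list and for Srf: Myl6 had the array order of Myl9, Fhl1 and Ldb3 had a mixed order, and Srf had the reverse. In the other lists they were found for Acta1, Actc1, Myh4, Trpc6, Lef1 and Actg1. Of these, Actc1 and Trpc6 had the order of Myl9, Acta1, Myh4 and Lef1 had a mixed order, and Actg1 was not measured. The order of Actc1 and Trpc6 rests on small differences, with ranges over the 4 arrays of 0.050 and 0.078, against 1.12 for Myl9. Of all genes, 17.8% had the order of Myl9. Boxes on 1 chromosome were left out of this naming of genes. Capitals mark the boxes, with a mismatch in both boxes of Acta2 and in the second box of Myl9. A match describes letters in the window and does not show binding.
Acta2, chr19:34255374-34255483, minus strand, 110 to 1 bases upstream: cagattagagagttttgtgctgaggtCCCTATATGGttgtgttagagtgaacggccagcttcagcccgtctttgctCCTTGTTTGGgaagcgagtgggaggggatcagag
Myl9, chr2:156775284-156775393, plus strand, 180 to 71 bases upstream: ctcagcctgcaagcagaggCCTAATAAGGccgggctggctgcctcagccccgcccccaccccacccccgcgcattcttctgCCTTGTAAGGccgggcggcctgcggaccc
Vcl, chr14:20929148-20929207, plus strand, 250 to 191 bases upstream: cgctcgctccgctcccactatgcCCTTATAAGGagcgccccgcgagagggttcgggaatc
Cnn2, chr10:79988510-79988569, plus strand, 90 to 31 bases upstream: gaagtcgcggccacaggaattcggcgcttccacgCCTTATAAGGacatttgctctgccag

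Every value is a log2 distance from the probe set's own median over the 4 arrays, so the data give differences between arrays and no level. A gene with 1 probe set therefore has its middle pair of arrays at values of equal size and opposite sign. Whether a contractile gene was expressed at all in the sorted cells cannot be read from the table, and in a bulk sample fewer cells of a type and less RNA per cell cannot be told apart. Sox2, the targeted gene, was at 0.96 in Het replicate 1, 0.87 in Het replicate 2, -0.87 in cKO replicate 1 and -0.94 in cKO replicate 2. Where its probe set lies relative to the deleted part was not examined. In limma's fit over all genes, 0 of 19938 genes passed an adjusted p of 0.05, a background of 0%, and 1053 genes lay at an unadjusted p under 0.05. Without moderation of the variances 0 genes passed as well, with 937 at an unadjusted p under 0.05. The precision of every value is limited by the number of arrays.

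No contractile gene passed the test, and the largest group difference among them was 1.20-fold. Of the 10 genes, 6 were lower and 4 higher in cKO by their group means. The median difference, cKO minus Het, was -0.057 over the 10 genes and 0.0034 over all genes. Without Het replicate 1 the median of the 10 turned to 0.012. The groups did not overlap in 4 of the 10 genes, against 33.5% of all genes, with 3 genes lower in cKO against a background of 15.6% and 1 higher against 17.8%. The smallest adjusted p among the 10 was 0.937 (limma), for Tagln. In 6 of the 10 genes the larger of the within-group SDs exceeded the difference between the groups.

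**Figure D1:**
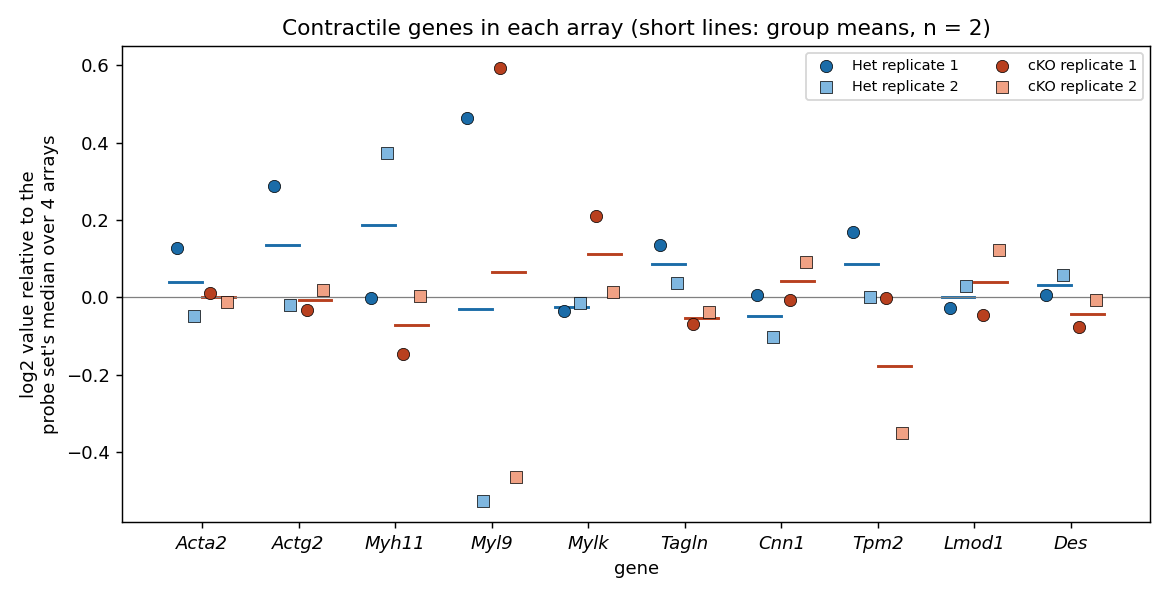
Value of each contractile gene in each of the 4 arrays (y axis, log2 relative to the probe set's median over the arrays), with blue for Het, red for cKO, circles for replicate 1 and squares for replicate 2; short lines are group means of 2 arrays. Most values lie close to 0; Myl9 is high in both replicate 1 arrays (0.46 and 0.59) and low in both replicate 2 arrays (-0.52 and -0.46), and single arrays stand out for Myh11 and Tpm2.

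Acta2 encodes smooth muscle alpha-actin, the usual marker of the dermal sheath and of vascular muscle (probe set 10467124). Its value was 0.13 in Het replicate 1, -0.047 in Het replicate 2, 0.012 in cKO replicate 1 and -0.012 in cKO replicate 2. The groups overlapped, with the highest and the lowest value both in Het. The difference was -0.040 ± 0.075 (SE, n = 2 arrays per group), with a 95% interval from -0.26 to 0.18, or 1.20-fold lower to 1.13-fold higher, and 44.3% of all genes had a smaller difference in size. It turned to 0.047 without Het replicate 1. Actg2 encodes smooth muscle gamma-actin, the enteric isoform (probe set 10545707). It stood at 0.29 in Het replicate 1 and at -0.020, -0.032 and 0.020 in Het replicate 2 and cKO replicates 1 and 2. Het replicate 1 was thus the only array set apart from the rest, and the groups overlapped. The difference of -0.14 ± 0.12 (interval -0.50 to 0.22) came to 0.013 without that array. The actin genes are alike in their coding sequence, and how far their probe sets tell them apart was not tested.

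The genes of myosin and of the enzyme that switches it on gave small differences of both signs. Myh11, the smooth muscle myosin heavy chain and the most specific marker of mature smooth muscle on the list (probe set 10437885), stood at -0.0027 and 0.37 in Het and at -0.14 and 0.0027 in cKO. The high value was that of Het replicate 2 alone, and Het replicate 1 lay between the cKO arrays. The difference was -0.26 ± 0.16, or 1.19-fold lower (interval -0.72 to 0.20; adjusted p = 0.982, limma), and it shrank to -0.068 without Het replicate 2. Without Het replicate 1 it was -0.45. Het replicate 2 was also the highest array for the pericyte gene Rgs5, a regulator of G protein signalling, at 0.37 against -0.32, -0.26 and 0.26. In that array the pericyte gene Pdgfrb was at -0.22 and the endothelial gene Pecam1 at -0.019. Het replicate 2 was the highest array for 6 of 11 pericyte, 4 of 11 endothelial, 11 of 12 keratinocyte and 6 of 11 dermal fibroblast markers. It was the highest for 2 of 9 dermal sheath and 2 of 18 dermal papilla markers. The share over all genes was not counted. The pericyte, endothelial, keratinocyte and fibroblast medians in that array were 0.021, 0.0077, 0.29 and 0.085. The part of these cell types in the value of Myh11 was not tested.

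Myl9 encodes the regulatory light chain of smooth muscle myosin, the target of the kinase (probe set 10477920). Its value was 0.46 in Het replicate 1, -0.52 in Het replicate 2, 0.59 in cKO replicate 1 and -0.46 in cKO replicate 2. Both replicate 1 arrays were high and both replicate 2 arrays low, so the groups overlapped almost completely. Replicate 1 exceeded replicate 2 by 0.99 within Het and by 1.06 within cKO, while cKO minus Het was 0.096 ± 0.55. The interval of that difference, from -1.51 to 1.70, or 2.84-fold lower to 3.24-fold higher, was the widest of the 10 genes. The range of Myl9 over the 4 arrays, 1.12, was larger than that of 99.4% of all genes, whose median range was 0.14. The difference turned to -0.40 without Het replicate 2 and to -0.43 without cKO replicate 1, and it was 0.59 without Het replicate 1 and 0.62 without cKO replicate 2.

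Mylk encodes the myosin light chain kinase that phosphorylates the product of Myl9 (probe set 10435345). It stood at -0.036 and -0.015 in Het and at 0.21 and 0.015 in cKO. Both cKO arrays were above both Het arrays, with cKO replicate 1 carrying most of the gap. The difference was 0.14 ± 0.081, or 1.10-fold higher (interval -0.10 to 0.38; adjusted p = 0.982, limma), and it was 0.040 without cKO replicate 1 and 0.23 without cKO replicate 2. Mylk was the only member higher in cKO with groups that did not overlap.

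Among proteins that bind actin filaments, Tagln, which encodes transgelin (SM22 alpha), an early marker of smooth muscle (probe set 10593123), came nearest to the threshold. It stood at 0.14 and 0.037 in Het and at -0.068 and -0.037 in cKO. Both cKO arrays were below both Het arrays, and the gap between the nearest arrays was smaller than the gap between the Het replicates. The difference was -0.14 ± 0.052, or 1.10-fold lower, with an interval from -0.29 to 0.013 (unadjusted p = 0.0635, adjusted p = 0.937, limma). Leaving out any 1 array moved it between -0.19 and -0.090.

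Tpm2 encodes beta-tropomyosin, which lies along the actin filament in smooth and skeletal muscle (probe set 10512499). It stood at 0.17 and 0.0018 in Het and at -0.0018 and -0.35 in cKO. The groups did not overlap, but Het replicate 2 and cKO replicate 1 were nearly level, and the low value was that of cKO replicate 2. Its difference of -0.26 ± 0.15, or 1.20-fold lower (interval -0.70 to 0.18; adjusted p = 0.978, limma), was the largest in size among the 10 genes and exceeded that of 93.1% of all genes. It shrank to -0.088 without cKO replicate 2 and was -0.44 without cKO replicate 1.

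The remaining actin-binding genes and desmin had differences of less than 0.1 on the log2 scale. Cnn1 encodes calponin, which restrains myosin on actin in smooth muscle (probe set 10583809). It stood at 0.0074 and -0.10 in Het and at -0.0074 and 0.092 in cKO, overlapping groups with a difference of 0.089 ± 0.065. Without Het replicate 2 that difference was 0.035, and without cKO replicate 2 it was 0.040. Lmod1 encodes leiomodin, which starts actin filaments in smooth muscle (probe set 10350123). It stood at -0.028 and 0.028 in Het and at -0.044 and 0.12 in cKO. Its groups overlapped, and its difference of 0.039 ± 0.075 turned to -0.044 without cKO replicate 2. Des encodes desmin, the intermediate filament of muscle (probe set 10347583). It stood at 0.0062 and 0.058 in Het and at -0.078 and -0.0062 in cKO. Both cKO arrays were below both Het arrays by a narrow margin, and the difference was -0.074 ± 0.048, with the narrowest interval of the 10 genes, from -0.21 to 0.066. It was -0.039 without cKO replicate 1, -0.048 without Het replicate 2 and -0.11 without cKO replicate 2.

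**Figure D2:**
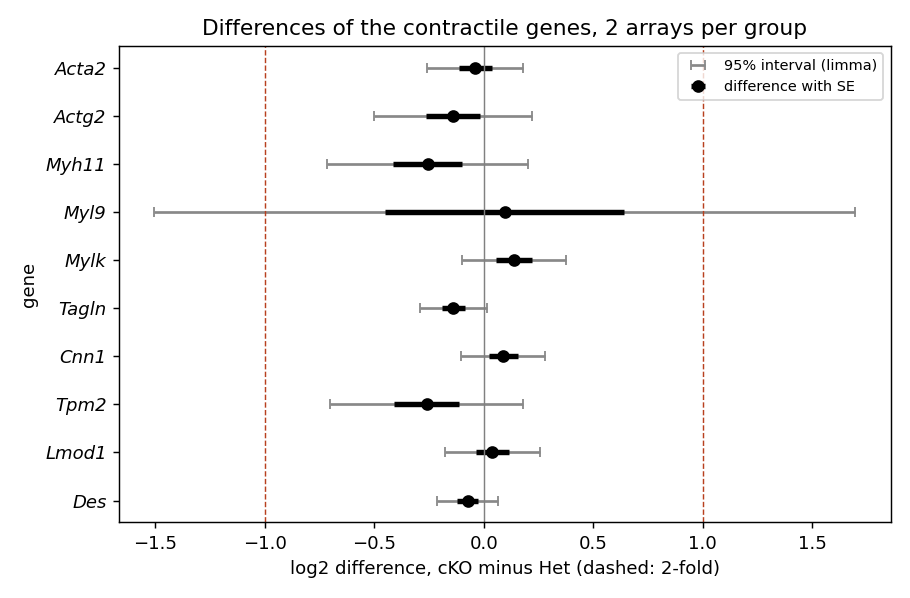
Difference of each contractile gene (x axis, log2, cKO minus Het, 2 arrays per group) with its standard error (thick bar) and 95% interval from limma (thin bar); dashed lines mark 2-fold. All 10 intervals include 0, and 9 of them lie within 2-fold in either direction, Myl9 being the exception.

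All 10 intervals included 0. For 9 genes the interval also lay within 2-fold in both directions, its farthest bound being that of Myh11 at 1.64-fold lower. These intervals are not adjusted for the number of genes and cover the spread between arrays alone. For Myl9 a change of 2-fold in either direction lay inside the interval.

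The order of the arrays by replicate number seen in Myl9 recurred in genes of the cytoskeleton on the lists of the wider machinery. Those lists were chosen with earlier results of these data known, and the order was noticed after the values had been seen. Both replicate 1 arrays were above both replicate 2 arrays in 10 of 25 other smooth muscle contractile and cytoskeletal genes and in 6 of 11 non-muscle actin and myosin genes. The same was true of 17.8% of all genes. The reverse order was found in 3 of the 25 and 0 of the 11, against 21.4% of all genes. In the 28 striated muscle genes, which include actins and myosins, 3 had the order of Myl9 and 10 the reverse. Flna, which encodes the actin cross-linker filamin A, stood at 0.52 and -0.42 in Het and at 0.42 and -0.48 in cKO. Its profile was close to that of Myl9, and its difference between the groups was -0.078 ± 0.49. Myl12b, the non-muscle counterpart of Myl9, stood at 0.39 and -0.27 in Het and at 0.27 and -0.72 in cKO. Cnn2, a calponin of non-muscle cells, stood at 0.36 and -0.51 in Het and at 0.085 and -0.085 in cKO. Vcl, which links actin to adhesion sites, stood at 0.14 and -0.14 in Het and at 0.37 and -0.19 in cKO. These 4 genes were picked after their values were seen, as examples of this order, so their agreement adds nothing to the counts. A mixed order was found in 12 of the 25 and 5 of the 11 genes. Among the 10 members, Acta2 had the same order as Myl9, although its cKO arrays were only 0.024 apart, and Myh11 and Lmod1 had the reverse order. Each order thus held 20% of the members, near the 17.8% and 21.4% of all genes. The labels do not say what the replicate numbers share, and a part of shared handling, litter or sort day in this order was not tested.

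**Figure D3:**
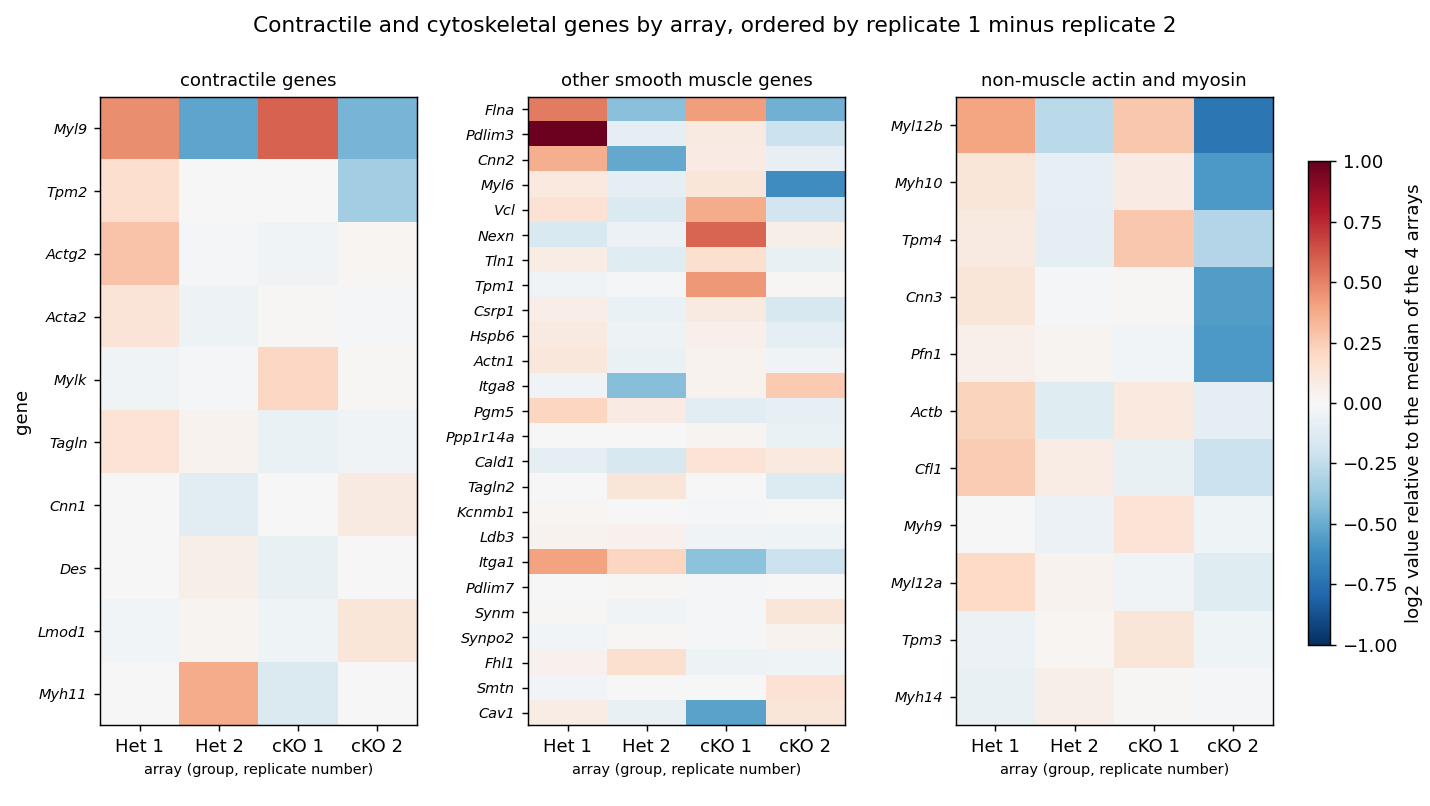
Values in each array (columns; colour, log2 relative to the median of the 4 arrays) for the 10 contractile genes, 25 other smooth muscle genes and 11 non-muscle actin and myosin genes, ordered from top to bottom by replicate 1 minus replicate 2. The sorting itself puts genes higher in replicate 1 at the top. Myl9, Flna and Myl12b, the top rows of the panels, are red in both replicate 1 arrays and blue in both replicate 2 arrays. Among the contractile genes only Myl9 is so at large values. The next row, Tpm2, is near 0 in Het replicate 2 and cKO replicate 1. Acta2 has the signs of Myl9 at small values, between -0.047 and 0.13. The cKO replicate 2 column of the third panel is blue for most genes.

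Of the other smooth muscle genes, 15 of 25 were lower in cKO and 10 higher, with a median difference of -0.021, and 0 passed the test over all genes (3 at an unadjusted p under 0.05, limma). The groups did not overlap in 9 of the 25, or 36%, near the 33.5% of all genes. Itga1, the collagen-binding integrin subunit of smooth muscle and fibroblasts, stood at 0.41 and 0.22 in Het and at -0.41 and -0.22 in cKO. All arrays of a group were on one side, and the difference of -0.63 ± 0.11, or 1.54-fold lower, was the largest of the list (adjusted p = 0.897, limma). Pdlim3, a gene of the muscle Z line, differed by -0.51 ± 0.42 and rested on Het replicate 1 at 0.98 against -0.086, 0.086 and -0.21. Nexn, which encodes the actin-binding protein nexilin, differed by 0.42 ± 0.20 with cKO replicate 1 at 0.58. Without Het replicate 1 the median of the list turned to 0.025, and without cKO replicate 2 to 0.011.

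Non-muscle actin and myosin genes, which every cell uses for shape and movement, had 8 of 11 members lower in cKO, a median difference of -0.19 and 0 genes past the test (1 at an unadjusted p under 0.05, limma). The list's median was 0.12 in Het replicate 1, -0.012 in Het replicate 2, 0.080 in cKO replicate 1 and -0.21 in cKO replicate 2, the low array. The groups did not overlap in 3 of the 11 genes, or 27.3%, against 33.5% of all genes. Pfn1, which encodes profilin, stood at 0.051 and 0.031 in Het and at -0.031 and -0.58 in cKO, and Cnn3, a non-muscle calponin, at 0.12, -0.012, 0.012 and -0.56 in the same order. Cfl1, which encodes the actin-severing protein cofilin, was the most evenly separated of the 3 named here, at 0.25 and 0.078 in Het and -0.078 and -0.21 in cKO (difference -0.31 ± 0.090). Tpm2 was lowest in the same cKO array. Without cKO replicate 2 the median of the list turned to 0.048 with 4 of 11 genes lower, and without cKO replicate 1 it was -0.30 with all 11 lower.

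Of 9 genes for SRF, myocardin and other factors that act on the contractile genes, in either direction, 5 were lower and 4 higher, with a median of -0.026 and 0 past the test (0 at an unadjusted p under 0.05, limma). Srf stood at -0.21 and 0.046 in Het and at -0.046 and 0.30 in cKO, overlapping groups with a difference of 0.21 ± 0.17. Its replicate 1 arrays were below its replicate 2 arrays, the reverse of Myl9. Klf4, a factor that opposes the smooth muscle programme, differed by 0.21 ± 0.12 and Tead1, a nuclear partner of YAP, by -0.19 ± 0.12. Myocd, which encodes myocardin, stood at 0.039 and 0.057 in Het and at -0.039 and -0.064 in cKO, a difference of -0.099 ± 0.036 (limma). Its range over the 4 arrays, 0.12, was below the median of all genes, 0.14. The genes of the myocardin-related factors, Mrtfa and Mrtfb, differed by -0.12 ± 0.056 and -0.093 ± 0.050. The groups did not overlap in 4 of the 9 genes, or 44.4%, against 33.5% of all genes. Of these 4 genes, 3 were lower in cKO and 1 was higher.

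Regulators of myosin phosphorylation were near 0 as a list, with 9 of 14 genes higher, 5 lower and a median of 0.018, which turned to -0.0094 without cKO replicate 2. None of the 14 passed (1 at an unadjusted p under 0.05, limma). The groups did not overlap in 4 of the 14, or 28.6%, against 33.5% of all genes. Calm3, 1 of the genes for calmodulin, differed by -0.44 ± 0.17 and Camk2g, a calmodulin-dependent kinase gene, by -0.32 ± 0.15; in both, cKO replicate 2 was the lowest array, at -0.48 and -0.35. Ppp1cb, the catalytic subunit of myosin phosphatase, differed by 0.15 ± 0.048 with both cKO arrays above both Het arrays (adjusted p = 0.936, limma).

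Endothelin, angiotensin and calcium entry genes, which start contraction in vascular muscle and the dermal sheath, had 8 of 16 members lower and 8 higher, with a median of -0.0060 (0.0041 without Het replicate 1) and 0 past the test (1 at an unadjusted p under 0.05, limma). The ligand gene Edn3, which also acts on melanocytes, stood at 0.58 and 0.19 in Het and at -0.19 and -0.57 in cKO. Its groups did not overlap, and the difference was -0.76 ± 0.21, or 1.69-fold lower (adjusted p = 0.936, limma). Ece1, the enzyme that activates endothelins, differed by -0.43 ± 0.16, also with separate groups. Cacna1c, the pore subunit of the L-type calcium channel, differed by 0.32 ± 0.13, with both cKO arrays above both Het arrays and cKO replicate 2 highest at 0.39. The endothelin receptor gene Ednrb had overlapping groups at -0.050 ± 0.18. The groups did not overlap in 4 of the 16 genes, or 25%, against 33.5% of all genes. Ednra, Itpr1 and Atp2b4 of this list were not measured.

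**Figure D4:**
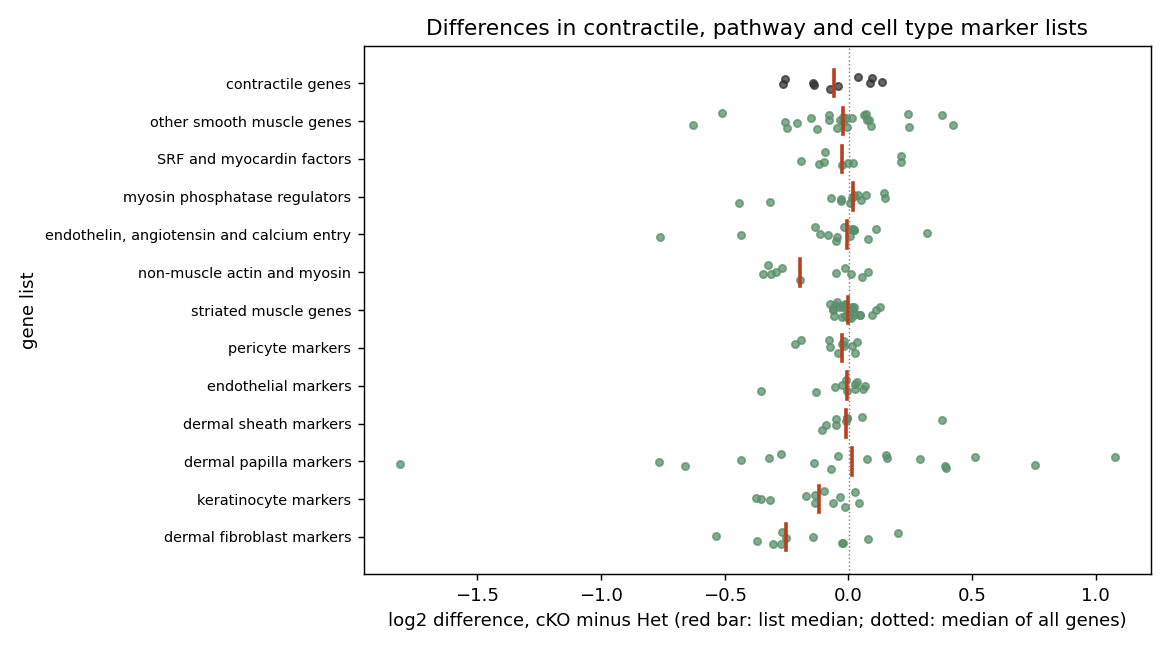
Difference of each gene (x axis, log2, cKO minus Het) in the contractile list (black) and in 12 lists of related pathways and cell type markers (green), with the median of each list as a red bar and that of all genes as a dotted line. The contractile genes lie between -0.26 and 0.14, a narrower span than that of the dermal papilla markers, which hold Sox2 at -1.81.

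Markers of the cells that carry these genes gave no called difference, and no sheath or pericyte marker had an unadjusted p under 0.05 (limma). The groups did not overlap in 11.1% of sheath and 27.3% of pericyte markers, against 33.5% of all genes. Of 9 measured dermal sheath markers 7 were lower, with a median of -0.011. Without Het replicate 1 the median was 0.066 and without cKO replicate 2 it was 0.0041, each with 4 of 9 lower. Itga8, an integrin subunit gene of sheath and smooth muscle that is also on the list of other smooth muscle genes, was the exception in size at 0.38 ± 0.17, standing at -0.037 and -0.42 in Het and at 0.037 and 0.26 in cKO. Abi3bp differed by -0.11 ± 0.20 and Pdgfra, a receptor gene of dermal mesenchyme, by -0.088 ± 0.23. Of 11 pericyte markers 8 were lower, with a median of -0.027, which turned to 0.0082 with 5 of 11 lower without Het replicate 2. Pdgfrb, the receptor gene that marks pericytes and other mesenchyme, stood at 0.54 and -0.22 in Het and at 0.22 and -0.32 in cKO, in the order of Myl9. Anpep differed by -0.19 ± 0.27 and Vtn by -0.077 ± 0.045.

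Striated muscle genes, a check for skeletal or panniculus muscle in the sort, varied little over the arrays. Of 28 genes 14 were higher and 14 lower, the median difference was 2.2e-04 and the median range over the 4 arrays 0.075, against 0.22 for the 10 contractile genes. Ckm, the muscle creatine kinase gene, differed by 0.13 ± 0.10, Myod1, a myogenic factor gene, by 0.11 ± 0.036, and Myh4, a fast myosin gene, by 0.095 ± 0.042. With no level in the table, a flat gene may be steady or undetected.

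The endothelial markers had a median of -0.0049, with 6 of 11 lower, and a median of 0.023 without Het replicate 2 or without cKO replicate 1. Eng, the endoglin gene, differed by -0.35 ± 0.15, Cdh5 by -0.13 ± 0.17 and Pecam1 by 0.069 ± 0.040. The keratinocyte markers had a median of -0.12, with Krt15, Krt5 and Krt14 at -0.37 ± 0.31, -0.35 ± 0.47 and -0.31 ± 0.32, all 3 highest in Het replicate 2. Without that array the keratinocyte median turned to 0.067 with 3 of 12 lower, and without Het replicate 1 it was -0.30 with 12 of 12 lower. The dermal fibroblast markers had a median of -0.25, with Lum, Col1a2 and Col1a1 at -0.54 ± 0.12, -0.37 ± 0.21 and -0.31 ± 0.099. The fibroblast median turned to 0.0092 with 5 of 11 lower without Het replicate 2, and it was -0.11 without cKO replicate 2. The dermal papilla markers had a median of 0.017 (-0.035 without cKO replicate 2), with Sox2, Ndnf and Vcan at -1.81 ± 0.056, 1.08 ± 0.50 and -0.77 ± 0.26. None of these genes passed the test over all genes, the smallest adjusted p being 0.345 for Sox2 (limma). At an unadjusted p under 0.05 were 6 of 18 papilla and 2 of 11 fibroblast markers, against 1053 of 19938 genes (limma). No endothelial or keratinocyte marker was. The groups did not overlap in 55.6% of papilla, 54.5% of fibroblast, 63.6% of endothelial and 25% of keratinocyte markers, against 33.5% of all genes. The papilla list holds Sox2 itself.

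The mean profile of the 10 genes was 0.11 and -0.021 in Het and 0.044 and -0.062 in cKO. By mean absolute distance over the 4 arrays, the nearest genes outside the list with at least that range were G0s2 (0.010), Jmjd6 (0.011), Mvk (0.011), Plec (0.011) and St3gal5 (0.012), out of 8381 candidates. Plec encodes plectin, a linker of desmin filaments. With 4 arrays and a profile range of 0.17, many genes lie close to such a profile. The mean profile leaned on Myl9, whose value was the largest in size among the members in every array. By median the members lay at 0.067 (Het replicate 1), -0.0065 (Het replicate 2), -0.020 (cKO replicate 1) and -0.0018 (cKO replicate 2). For cKO replicate 1 the sign was thus opposite to that of the mean. How near the named genes lie to the members without Myl9 was not tested.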

How the data were processed

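RNA of sorted dermal papilla cells was measured on 4 Affymetrix mouse arrays, 2 Het and 2 cKO. Per the submitters' processing notes the authors used RMA. In the deposited table each of 28853 probe sets had a median of 0 over the arrays within 1e-06. The centring step, log base, software version and build were not given in the sources used here, and the deposited values were taken as log2, an assumption on which every fold rests. Of the probe sets, 21789 named 1 gene in the platform annotation, giving 19938 genes, each the mean of its probe sets. The planned filter on low values was not possible without levels, so every gene stayed in.

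Groups were compared over all genes with limma 3.58.1 in R 4.3.3 (group only, default prior, 2 residual degrees of freedom plus 1.52 from the prior, Benjamini-Hochberg adjustment, threshold 0.05). The code was tried on simulated data with planted changes of 2 on the log2 scale and noise independent between arrays. That trial does not bear on differences as small as those of the members or on arrays that vary together. Standard errors and 95% intervals are those of the fit to the measured arrays. Alternatives were array centring, a robust prior, no moderation, a replicate block, other handling of probe sets and each array left out. The members and lists were chosen with earlier results of these data known. Named genes were all members, Sox2, the 3 largest differences of each list and the 5 genes nearest to the members' mean profile. Flna, Myl12b, Cnn2, Vcl, Rgs5, Pecam1, Myocd, Mrtfa, Mrtfb and Ednrb were added after their values were seen. Figures were drawn with matplotlib 3.10.9.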

Additional observations from a re-analysis of the deposited data

How the results depend on the processing

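Over 11 alternatives, 0 genes passed in each, with between 769 (without Het replicate 1) and 1647 (without cKO replicate 1) at an unadjusted p under 0.05 (limma). No member passed in any of them, the smallest adjusted p being 0.587. In 6 of the alternatives each member keeps its difference and changes only in spread and p-value, so they say nothing about its direction. Those on the handling of probe sets do so because each member has 1 probe set. The robust prior, the fit without moderation and the replicate block do so because they alter only the variance. Of 40 member differences with an array left out, 35 kept their direction and 5 did not: Acta2 ranged from -0.13 to 0.047, Actg2 from -0.29 to 0.013, Myl9 from -0.43 to 0.62 and Lmod1 from -0.044 to 0.12. The median of the 10 genes ranged from -0.097 to 0.012, with 4 to 7 members lower. With array centring 6 members were lower and the median was -0.060.

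Deviations of arrays with the same replicate number correlated at 0.304 over genes, which are not independent replicates, and the labels do not say that a number marks a shared origin. With the replicate block 0 genes passed and 1625 lay at an unadjusted p under 0.05, and the adjusted p of Myl9 was 0.739 and of Tpm2 0.587 (limma). The filter on low values was not run, because the table holds no levels. A group of 1 array, where the other was left out, was assumed to vary like the remaining group.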

Other observations

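In some other lists, among them that of striated muscle actins and myosins, the order by replicate number was the reverse of that of Myl9 more often than in all genes. Both replicate 2 arrays were above both replicate 1 arrays in 10 of 28 striated muscle genes, 5 of 12 keratinocyte markers, 4 of 11 endothelial markers and 4 of 11 pericyte markers, against 21.4% of all genes. The order of Myl9 was found in 3, 0, 0 and 3 genes of these lists. The median range over the 4 arrays was 0.075, 0.41, 0.070 and 0.12 in the same lists, against 0.14 over all genes and 1.12 for Myl9. Where the values lie this close, as in the striated muscle and endothelial lists, the order rests on small differences and the genes may be undetected. In the dermal sheath markers 3 of 9 genes had the order of Myl9 and 2 the reverse, and in the endothelin and calcium entry genes 4 and 3 of 16. No test was made of these counts, which were looked at after the values had been seen.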
